A study of Mus musculus with 6 samples.

Results

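The brush border genes described here are 10 genes of the actin bundle, the membrane linkage and the adhesion links of microvilli, taken by name from a table of 21959 genes. They are Vil1, Pls1, Espn and Eps8, which act on the actin core, Ezr, which ties the core to the membrane, the motors Myo1a and Myo7b, and Cdhr2, Cdhr5 and Ush1c, which belong to the adhesion complex between microvilli. The list was picked from this contrast because Vil1 is nearly lost in the drug-resistant line, so the levels of the 10 genes are a description and carry no p-value. All 10 genes had a row in the table, and 8 passed the filter on low counts that left 11795 genes for testing. Cdhr5 and Ush1c did not pass it.

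A microvillus is a finger of membrane around a bundle of parallel actin filaments, and a dense carpet of them forms the brush border on the apical face of absorptive cells such as enterocytes. Villin, plastin-1 and espin bundle the filaments, EPS8 sits at their tips, ezrin and class I myosins hold the membrane to the bundle, and the protocadherins CDHR2 and CDHR5 link neighbouring tips through a complex with harmonin (Ush1c), ANKS4B, CALML4 and MYO7B. Normal gastric surface cells carry only short microvilli, and villin in the stomach is best known as a marker of intestinal-type cells.

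RNA of 2 mouse gastric adenocarcinoma cell lines was sequenced after poly-A selection, with 3 libraries per line. MPC (MTC in the text of the study) is the untreated control line, and MPC-PTX (MTC-R) was raised from it over more than 30 cycles of paclitaxel (PTX), a drug that stabilises microtubules. Both lines carry the genotype labelled CDH1-/-;Trp53-/-, were grown in the same RPMI medium and were labelled batch 1. The cells began as stomach organoids of a mouse with Cdh1 flox/flox and Trp53 flox/flox alleles and Mist1-CreER, a Cre driven by the Mist1 promoter, that were recombined ex vivo and grown as a tumour in a nude mouse. Each line went through monoclonal selection, so a difference between the lines is also a difference between 2 clones and cannot be told apart from one. The labels do not say whether the 3 libraries of a line came from separate cultures, and p-values then measure only the spread between these libraries, which may be technical.

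The libraries held 16574580 to 23148182 counts on genes, with 13897 to 14295 genes detected. Cdh1 had 2217 to 3068 counts and Trp53 63 to 142 counts in a library, and gene-level counts do not separate deleted from intact exons. The MPC libraries differed more among themselves than the MPC-PTX libraries, with a biological coefficient of variation of 17.9% against 3.01%. MPC replicate 3 stood apart from the others. Across the tested genes, which are not independent replicates, the ratio of MPC replicate 3 to MPC replicate 1 correlated with transcript GC content (Spearman's rho -0.57) and with transcript length (0.47). The cells were epithelial by their markers, with summed CPM (counts relative to a TMM-scaled library size) of 8831 to 10245 over Krt8, Krt18, Krt19, Krt7, Epcam and Cldn7 in the MPC libraries and of 5381 to 5548 in the MPC-PTX libraries. The 10 markers of differentiated stomach cells, such as the mucin Muc5ac, the trefoil factors Tff1 and Tff2 and the acid pump gene Atp4b, reached at most 6 counts in any library, and 4 of them were at 0 in all 6.

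The sequences just upstream of the transcription starts are shown first, for the gene that was nearly lost and for the one with the highest level. They come from RefSeq promoter windows of GRCm38.p6, cut to the 250 bases before the start, and 8 of the 10 genes were in that table. Capitals mark CG dinucleotides, the sites that DNA methylation can occupy, which were counted only as letters here.

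Vil1 (chr1:74409134-74409383, plus strand): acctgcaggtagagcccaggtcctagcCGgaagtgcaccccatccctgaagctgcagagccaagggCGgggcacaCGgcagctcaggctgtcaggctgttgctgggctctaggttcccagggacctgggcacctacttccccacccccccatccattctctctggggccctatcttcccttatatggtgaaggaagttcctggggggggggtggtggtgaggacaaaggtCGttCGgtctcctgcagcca

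Ezr (chr17:6782781-6783030, minus strand): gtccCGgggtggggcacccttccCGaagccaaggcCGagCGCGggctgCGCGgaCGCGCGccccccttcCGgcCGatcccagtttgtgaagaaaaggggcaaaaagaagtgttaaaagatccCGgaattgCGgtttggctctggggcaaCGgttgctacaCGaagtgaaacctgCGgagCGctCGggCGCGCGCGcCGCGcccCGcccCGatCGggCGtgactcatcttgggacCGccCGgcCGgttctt

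The Vil1 window held 5 CG dinucleotides and the Ezr window 32, against a median of 6 and quartiles of 2 and 16 over 32851 windows of the same length. The Pls1 window held 10, those of Cdhr5 and Ush1c 7 each, and those of Cdhr2 and Myo1a 1 each. Espn has 3 annotated starts in the table, with 11, 1 and 3 CG dinucleotides. By this count the Vil1 window was close to the median, and of the brush border genes with 1 listed start, Cdhr2 and Myo1a lay below the lower quartile. The Vil1 window was richer in G and C than most, at 62.8% against a median of 52.4%. Its ratio of observed CG dinucleotides to those expected from its C and G content was 0.203, below the median of 0.373.

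The next windows belong to Eps8l3, a relative of Eps8, and Anks4b, the scaffold of the adhesion complex. Both genes fell together with Vil1 and with the transcription factor gene Hnf4a, and they were chosen after their values had been seen. The windows shown are also the only ones read that held the match marked below. Those of Calml4 and Myo3b, which were lower in MPC-PTX as well, held none. Capitals mark a match, on either strand, to CAAAGNNCA, the pattern of letters that HNF4 proteins are known to bind.

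Eps8l3 (chr3:107876980-107877229, plus strand): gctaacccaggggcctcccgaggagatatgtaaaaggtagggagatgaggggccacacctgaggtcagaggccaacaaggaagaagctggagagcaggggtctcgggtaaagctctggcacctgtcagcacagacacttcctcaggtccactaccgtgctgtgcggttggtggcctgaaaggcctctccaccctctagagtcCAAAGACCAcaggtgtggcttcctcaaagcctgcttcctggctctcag

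Anks4b (chr7:120173608-120173857, plus strand): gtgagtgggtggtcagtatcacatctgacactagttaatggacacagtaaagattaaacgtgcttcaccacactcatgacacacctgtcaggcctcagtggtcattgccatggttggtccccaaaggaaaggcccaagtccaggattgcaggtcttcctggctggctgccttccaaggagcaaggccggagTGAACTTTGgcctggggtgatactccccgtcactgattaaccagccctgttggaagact

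This pattern was present in 5.49% of the 32851 windows. Among the genes of which windows were read (8 of the 10 brush border genes, Hnf4a, Eps8l3, Anks4b, Calml4 and Myo3b), only Eps8l3 and Anks4b held it. TTTATG, a pattern of CDX factors, was present in 10.8% of all windows, in the Cdhr5 window and in 1 of the 3 Espn windows, so it never overlapped CAAAGNNCA here. A match is a description of letters and not a binding site, and the Vil1 window held neither pattern.

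Vil1 was the brush border gene with the widest difference between the lines. It encodes villin, which bundles actin filaments and severs them when calcium is high (ENSMUSG00000026175, chromosome 1 of GRCm38, 74409376 to 74435559). The MPC libraries had 668, 1038 and 930 counts of Vil1 and the MPC-PTX libraries 11, 7 and 6. Scaled to library size, Vil1 was at 35.5, 53.5 and 44.7 CPM in MPC and at 0.470, 0.316 and 0.356 CPM in MPC-PTX. The groups did not overlap, the lowest MPC library was replicate 1, and a few reads remained in every MPC-PTX library. The log2 fold change was -6.84 (standard error, SE, 0.24), the 20th lowest among the 11795 tested genes, and the summed counts differed by a ratio of 113 with a 95% interval of 75.8 to 177 for counting error alone. In bulk RNA, fewer cells with villin and less villin RNA per cell cannot be told apart. The annotated 3' end of Vil1 shares 49 bases with Usp37 on the opposite strand, whose counts were 655 to 1023 in MPC and 856 to 1246 in MPC-PTX. Whether the counting used strand is not given in the sources used here.

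The other bundling proteins did not share the size of this difference. Pls1 (chromosome 9, 95752642 to 95845311), the plastin of the brush border, was at 112, 125 and 150 CPM in MPC and 87.1, 90.0 and 90.7 CPM in MPC-PTX. All MPC-PTX libraries lay below all MPC libraries, and the log2 fold change was -0.53 (SE 0.11). Espn (chromosome 4, 152120331 to 152152371) encodes espin, which cross-links the filaments and lengthens the bundle. It had 13, 12 and 4 counts in MPC and 4, 14 and 8 in MPC-PTX. The groups overlapped at a level near the limit of detection, and its log2 fold change of -0.23 (SE 0.61) became 0.07 without MPC replicate 1 and 0.18 without MPC-PTX replicate 1.

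Eps8 moved the other way. Its product caps the growing ends of actin filaments, bundles them and marks the tips of microvilli (chromosome 6, 137477245 to 137654876). It was at 76.9, 70.1 and 82.9 CPM in MPC and at 97.4, 99.2 and 98.6 CPM in MPC-PTX, so that every MPC-PTX library was above every MPC library. The log2 fold change was 0.36 (SE 0.08). This call was lost when any 1 of the MPC-PTX libraries was left out, at log2 fold changes of 0.35 to 0.37.

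Ezr (chromosome 17, 6738041 to 6782784) encodes ezrin, which links membrane proteins to the actin core once it is phosphorylated. It was at 586, 629 and 556 CPM in MPC and at 435, 438 and 437 CPM in MPC-PTX. The groups did not overlap, and the log2 fold change was -0.44 (SE 0.06). Ezr thus remained the most abundant of the 10 genes per length of transcript in both lines.

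The motors differed from each other. Myo7b (chromosome 18, 31959234 to 32036961), the myosin that carries the adhesion complex to the microvillus tip, was at 8.50, 10.4 and 8.74 CPM in MPC and at 3.80, 2.52 and 3.09 CPM in MPC-PTX. Its lowest MPC library was above its highest MPC-PTX library, with a log2 fold change of -1.55 (SE 0.18). Myo1a (chromosome 10, 127705170 to 127720940), the myosin that bridges the actin core and the membrane in enterocytes, was at 0.319, 0.516 and 0.625 CPM in MPC and at 0.384, 0.541 and 0.297 CPM in MPC-PTX. These low levels overlapped, and the log2 fold change was -0.24 (SE 0.41).

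The adhesion complex was at low levels in both lines. Cdhr2 (chromosome 13, 54701461 to 54736662), the protocadherin that pairs with CDHR5, had 15, 33 and 31 counts in MPC and 3, 6 and 13 in MPC-PTX. MPC replicate 1 and MPC-PTX replicate 3 came close to each other without overlap in CPM, at 0.797 and 0.772. The log2 fold change was -1.87 (SE 0.57). The call was lost without MPC replicate 2 (-1.66), without MPC-PTX replicate 1 (-1.41) and without MPC-PTX replicate 2 (-1.68). Cdhr5 (chromosome 7, 141269083 to 141276786) had 5, 3 and 3 counts in MPC and 4, 3 and 6 in MPC-PTX, and Ush1c (chromosome 7, 46195350 to 46238503) had 0, 0 and 1 counts in MPC and 0, 1 and 1 in MPC-PTX. At this depth no difference was detectable for either gene, and the summed count ratio of Cdhr5 was 0.871 with an interval of 0.353 to 2.11.

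**Figure D1:**
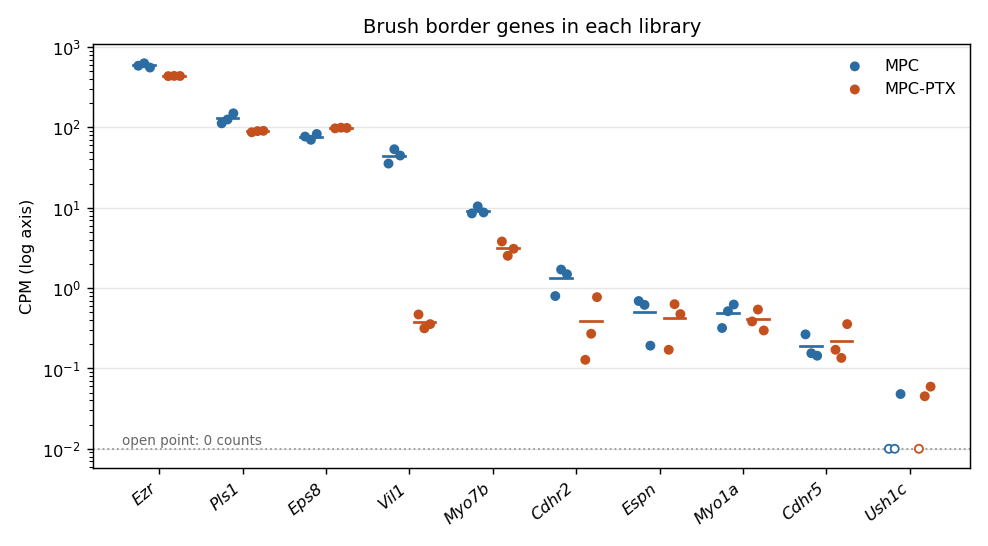
CPM of the 10 brush border genes in each library, on a log axis, with MPC in blue and MPC-PTX in orange. Points are libraries, bars are means of 3 libraries, and open points on the dotted line are libraries with 0 counts. Vil1 drops from a level between Eps8 and Myo7b to that of Espn and Myo1a, and Ezr stays highest in both lines.

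Of the 8 tested genes, 5 were lower in MPC-PTX at an adjusted p below 0.05 (Vil1, Pls1, Myo7b, Ezr and Cdhr2) and 1 was higher (Eps8). Among all tested genes, 15.6% were lower and 14.1% higher by this rule. By the rule of the study's methods, an unadjusted p below 0.05 with a log2 fold change beyond 1 in either direction, 3 of the 8 were lower (Vil1, Myo7b and Cdhr2) and 0 higher, against 4.34% and 3.77% of all tested genes. The MPC-PTX libraries were all below the MPC libraries for the same 5 genes and all above them for 1, against 22.7% and 24.2% of all tested genes. Without MPC replicate 3 the same 6 genes were called, with log2 fold changes of -6.89 for Vil1, -1.85 for Cdhr2, -1.64 for Myo7b, -0.53 for Ezr, -0.47 for Pls1 and 0.37 for Eps8. The median log2 fold change was -0.49 over the 8 genes and 0.04 over all tested genes. Vil1 and Cdhr2 passed the filter on low counts through the MPC libraries, and the list was picked from this contrast, so nothing further is read from these counts.

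Per kilobase of transcript, Ezr, Pls1 and Eps8 held the highest levels in both lines, and the order changed where Vil1 came below Myo7b and Cdhr2 below Myo1a in MPC-PTX. In MPC, Ezr was highest at 187 ± 11.5 CPM per kilobase (SD, n = 3), followed by Pls1 at 34.9 ± 5.12, Eps8 at 16.8 ± 1.40 and Vil1 at 14.3 ± 2.88, and the ranges of Eps8 and Vil1 overlapped. Myo7b at 1.39 ± 0.157 and Cdhr2 at 0.322 ± 0.115 came next, and Myo1a, Espn and Cdhr5 overlapped with their neighbours between 0.0716 and 0.141. In MPC-PTX, Ezr was at 138 ± 0.429, Pls1 at 24.1 ± 0.526, Eps8 at 21.5 ± 0.209 and Myo7b at 0.474 ± 0.0966. Vil1, at 0.122 ± 0.0256, then fell within a group of overlapping genes with Myo1a, Cdhr2, Espn and Cdhr5. Ush1c was lowest in both lines.

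The relatives of these genes show how much of each protein family the brush border member made up. The p-values from here on come from edgeR's quasi-likelihood F-test, adjusted by Benjamini-Hochberg over all 11795 tested genes. Of 27 relatives, 21 were tested, 9 were lower, 2 were higher and 10 did not pass, with a median log2 fold change of -0.23. Over all tested genes, 15.6% were lower and 14.1% higher, with a median of 0.04. The counts of each list below are to be read against these shares. Relatives are named without regard to their change.

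In the villin and gelsolin family, Vil1 made up 2.07%, 3.05% and 2.92% of the summed CPM per kilobase in MPC and 0.0394%, 0.0266% and 0.0305% in MPC-PTX. Most of the family was Capg, which caps filaments without severing them, and Gsn, which encodes gelsolin, the general severing protein. Gsn fell by 1.10 on the log2 scale (SE 0.07, adjusted p = 5.74e-05), and Scin, which encodes the related scinderin, fell by 1.40 (SE 0.17, adjusted p = 0.0012). Vill, the villin-like gene, also fell, with a log2 fold change of -0.76 (SE 0.06, adjusted p = 0.000197). Capg fell by 0.32 (SE 0.07, adjusted p = 0.0166), a call that was lost without MPC replicate 2 or without any 1 of the MPC-PTX libraries, at log2 fold changes of -0.32 to -0.27.

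Avil, which encodes advillin, a close relative of villin, rose. It was at 1.59, 1.08 and 0.913 CPM in MPC and at 3.37, 3.29 and 2.85 CPM in MPC-PTX, a log2 fold change of 1.41 (SE 0.24, adjusted p = 0.00462). Per kilobase it was at 0.394 in MPC and 1.05 in MPC-PTX, far below the 14.3 that Vil1 had in MPC. Flii and Svil, for flightless-1 and supervillin, had log2 fold changes of -0.04 and 0.01 and did not pass. Flii passed without MPC replicate 3, at -0.17. The family as a whole was at 534 ± 38.2 CPM per kilobase (SD, n = 3) in MPC and 378 ± 3.68 in MPC-PTX.

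**Figure D2:**
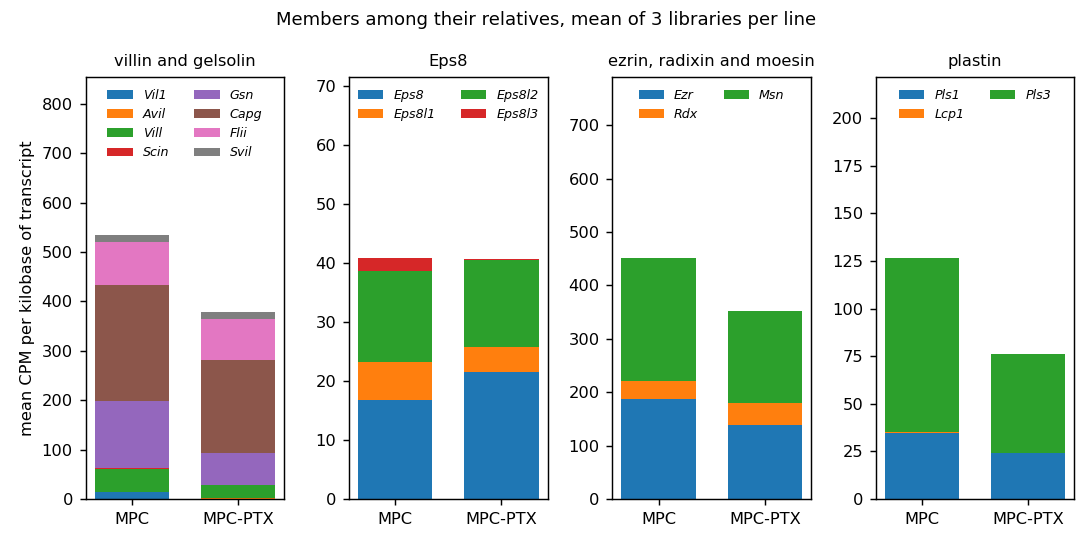
Mean CPM per kilobase of transcript of 3 libraries per line, stacked by gene, for 4 families that hold a brush border gene (Vil1, Eps8, Ezr and Pls1, the lowest segment of each bar). Each panel has its own axis from 0. The Vil1 segment disappears at this scale in MPC-PTX, and the Eps8 family sums to 40.9 in MPC and 40.7 in MPC-PTX.

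The summed Eps8 family differed by less than the spread between libraries, at 40.9 ± 1.46 CPM per kilobase (SD, n = 3) in MPC and 40.7 ± 0.917 in MPC-PTX, while its parts shifted. Eps8 made up 41.1% of the family in MPC and 53.0% in MPC-PTX. Eps8l3 had 69, 116 and 117 counts in MPC and 5, 6 and 7 in MPC-PTX, and it fell by 4.11 on the log2 scale (SE 0.33, adjusted p = 0.000183). Eps8l3 passed the filter on low counts through the MPC libraries. Its share of the family went from 5.52% to 0.324%. Eps8l1 fell by 0.63 (SE 0.08, adjusted p = 0.00128), and Eps8l2 had a log2 fold change of -0.05 (SE 0.11, adjusted p = 0.764), whose sign changed in 3 alternatives.

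Ezrin's relatives divided. Msn, which encodes moesin, fell by 0.42 (SE 0.06, adjusted p = 0.00176), close to Ezr in size, and the share of Ezr in the sum of ezrin, radixin and moesin was 41.3% in MPC and 39.2% in MPC-PTX. Rdx, for radixin, had a log2 fold change of 0.29 (SE 0.15, adjusted p = 0.213). It passed without MPC replicate 3 at 0.44 (adjusted p = 0.000173) and with a correction for GC content and transcript length at 0.20 (adjusted p = 0.0312). Nf2, for the tumour suppressor merlin, rose by 0.33 (SE 0.06, adjusted p = 0.00481).

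Among the plastins, Pls3, the widely expressed form, fell by 0.82 (SE 0.17, adjusted p = 0.0114). Pls1 made up 27.8% of the plastin sum in MPC and 31.7% in MPC-PTX. Lcp1, the leukocyte plastin, was at 0.384 to 1.03 CPM in the 6 libraries and did not pass (log2 fold change -0.61, adjusted p = 0.284).

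The class I myosins of both lines were not Myo1a. That gene made up 0.0558% of the class I sum per kilobase in MPC and 0.0518% in MPC-PTX, whereas Myo1c, a widely expressed tether of membrane to actin, made up 60.3% and 62.5%. Myo1e fell by 0.39 (SE 0.07, adjusted p = 0.00591). Myo1c, Myo1d and Myo1h did not pass, with log2 fold changes of -0.11, -0.15 and 0.67. Without MPC replicate 3, Myo1c and Myo1d passed at -0.24 and -0.24, and without MPC replicate 1 Myo1h passed at 0.97. Myo7a, the hair cell counterpart of Myo7b, was at 103 to 112 CPM in all 6 libraries, with a log2 fold change of 0.05 (adjusted p = 0.612). Myo7b made up 8.87% of the class VII sum in MPC and 3.11% in MPC-PTX. Espnl, Cdhr1, Cdhr3, Cdhr4, Myo1f and Myo1g had at most 13 counts in any library.

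Other genes of the microvillus were mixed in direction. Of 17, 12 were tested, 5 were lower, 2 higher and 5 did not pass, with a median log2 fold change of -0.12. Genes named from here on that are not among the largest changes, the highest levels or the relatives were chosen after their values were seen, because a list had few calls. Anks4b, the scaffold that joins harmonin and MYO7B, had 10, 16 and 17 counts in MPC and 2, 1 and 2 in MPC-PTX. It fell by 3.08 on the log2 scale (SE 0.49, adjusted p = 0.00359). Calml4, the light chain of MYO7B, had 8, 26 and 26 counts in MPC and 0, 0 and 1 in MPC-PTX. It did not pass the filter on low counts. Its summed counts differed by a ratio of 61.8 with an interval of 10.7 to 2481 for counting error. Both genes were near 0 in MPC-PTX, and Anks4b passed the filter on low counts through the MPC libraries.

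Myo6, the motor that moves toward the base of the microvillus, fell by 0.94 (SE 0.16, adjusted p = 0.00535). Podxl, a sialomucin of apical membranes that binds ezrin through NHERF proteins, fell by 0.92 (SE 0.09, adjusted p = 0.000346). Baiap2l1 and Pacsin2, which act on membrane curvature, fell by 0.33 (adjusted p = 0.0134) and 0.30 (adjusted p = 0.0174). The call of Baiap2l1 was lost without MPC-PTX replicate 2 (-0.31) or 3 (-0.32), and that of Pacsin2 without MPC replicate 2 or any 1 of the MPC-PTX libraries (-0.31 to -0.28).

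Prom1 and Stk10 rose. Prom1 encodes prominin-1, a protein of membrane protrusions, and was the most abundant gene of this list, at 975.9, 1046 and 1109.6 CPM in MPC and at 1317, 1338 and 1417 CPM in MPC-PTX, a log2 fold change of 0.38 (SE 0.07, adjusted p = 0.00741). Stk10, one of the kinases that phosphorylate ezrin, was at 47.7, 50.9 and 49.4 CPM in MPC and at 84.5, 87.6 and 84.2 CPM in MPC-PTX, with a log2 fold change of 0.79 (SE 0.07, adjusted p = 0.00021). Slk, the related ezrin kinase, ranged from 70.6 to 170 CPM in MPC and did not pass (log2 fold change 0.35, adjusted p = 0.431). Slc9a3r1, for the ezrin-binding scaffold NHERF1, did not pass (-0.17, adjusted p = 0.198) but did so without MPC replicate 3 (-0.31, adjusted p = 0.000363).

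The enzymes and carriers that make a brush border digestive were almost absent from both lines. Of 24 such genes, 16 had at most 10 counts in every library, among them Sis (sucrase-isomaltase), Lct (lactase), Alpi (intestinal alkaline phosphatase), Dpp4 and Slc15a1 (the peptide carrier). Of the 8 tested, 3 were lower and 0 higher, with a median log2 fold change of -0.63. Cdh17, the liver-intestine cadherin, was at 5.58, 9.18 and 10.3 CPM in MPC and at 1.79, 1.71 and 1.01 CPM in MPC-PTX, a log2 fold change of -2.44 (SE 0.30, adjusted p = 0.0012). Ace, for the angiotensin-converting enzyme, fell by 1.49 (SE 0.13, adjusted p = 0.000268), and Slc9a2, a sodium-proton exchanger, fell by 0.77 (SE 0.13, adjusted p = 0.00513).

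The list of apical trafficking genes held 10 genes of vesicle transport in polarised cells, not all of them specific to the apical side. Of these, 4 were lower, 1 higher and 5 did not pass, with a median log2 fold change of -0.08. Ap1m2, the epithelial subunit of the AP-1B clathrin adaptor that sorts proteins to the basolateral membrane, was at 97.9, 85.8 and 81.7 CPM in MPC and at 22.9, 23.4 and 26.0 CPM in MPC-PTX. Its log2 fold change was -1.88 (SE 0.10, adjusted p = 3.31e-05). Myo5b, the motor that is mutated in microvillus inclusion disease, had a log2 fold change of -0.13 (adjusted p = 0.419), and Stx3 and Stxbp2, whose defects cause the same kind of disease, had 0.06 (adjusted p = 0.581) and 0.07 (adjusted p = 0.549). Stxbp2 was at -0.05 without MPC replicate 3.

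The remaining trafficking calls were small. Vipas39 fell by 0.48 (SE 0.09, adjusted p = 0.00647). Rab11a and Rab11b, the recycling endosome GTPases, fell by 0.40 (adjusted p = 0.0103) and 0.20 (adjusted p = 0.0438), and Vps33b rose by 0.51 (adjusted p = 0.0361). The calls of Rab11a (lost at -0.40 and -0.37 without MPC-PTX replicate 1 and 3), Rab11b (lost without MPC replicate 2 or any 1 of the MPC-PTX libraries, at -0.21 to -0.18, with unscaled library sizes, at -0.16, and with no filter on low counts, at -0.21) and Vps33b (lost without MPC replicate 1 or 2 or MPC-PTX replicate 1 or 3, at 0.38 to 0.58, and with at least 10 counts in every library, at 0.48) depended on these settings. Rab8a did not pass (0.18, adjusted p = 0.177) except without MPC replicate 1 (0.28, adjusted p = 0.0126).

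Of 7 transcription factors known to drive intestinal genes, 5 were tested, 3 were lower and 0 higher, with a median log2 fold change of -0.89. Hnf4a, a nuclear receptor of endoderm that activates many brush border genes in the gut, had 927, 1442 and 1524 counts in MPC and 24, 19 and 16 in MPC-PTX. It was at 49.3, 74.3 and 73.2 CPM in MPC and at 1.03, 0.857 and 0.951 CPM in MPC-PTX, a log2 fold change of -6.11 (SE 0.23, adjusted p = 9.23e-06) and the 29th lowest of all tested genes. The MPC libraries were all far above the MPC-PTX libraries, and replicate 1 was again the lowest of the MPC libraries. Cdx2, the intestinal homeobox factor, was at 16.7, 18.3 and 17.3 CPM in MPC and at 9.10, 9.20 and 6.71 CPM in MPC-PTX, a log2 fold change of -1.06 (SE 0.14, adjusted p = 0.00155). Hnf4g (-0.89, adjusted p = 0.198) and Smad4 (0.20, adjusted p = 0.0709) did not pass.

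**Figure D3:**
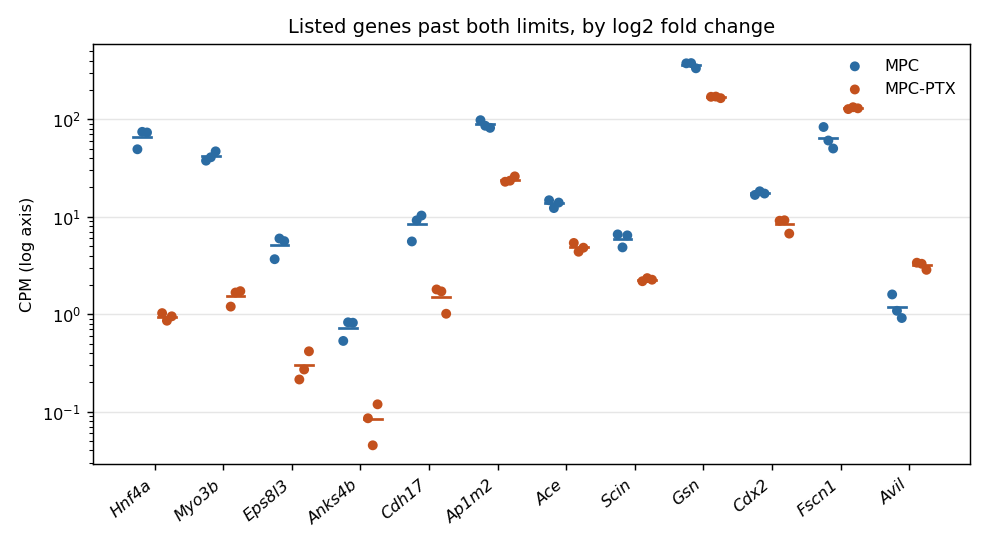
CPM on a log axis of the genes of the other lists, cell type markers left out, that passed the test with a log2 fold change beyond 1 in either direction. Blue points are the 3 MPC libraries, orange points the 3 MPC-PTX libraries, and bars are means. Hnf4a, Myo3b and Eps8l3 are separated most widely, and Fscn1 and Avil are the pair that is higher in MPC-PTX.

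Genes of other actin protrusions changed in both directions. In filopodia, thin protrusions of migrating cells, 2 of 10 genes were lower and 1 higher, with a median log2 fold change of -0.11. These counts were near the shares of all tested genes, 15.6% lower and 14.1% higher. Fscn1, which encodes fascin, the bundling protein of filopodia, was at 83.4, 60.6 and 50.2 CPM in MPC and at 127, 133 and 130 CPM in MPC-PTX, a log2 fold change of 1.01 (SE 0.17, adjusted p = 0.00631). Every MPC-PTX library was above every MPC library. Enah and Vasp, which promote filament growth, fell by 0.58 (adjusted p = 0.0364) and 0.33 (adjusted p = 0.0455). Enah's call was lost without MPC replicate 2 or any 1 of the MPC-PTX libraries (-0.63 to -0.56), and Vasp's without any 1 library other than MPC replicate 3 (-0.37 to -0.24) and with unscaled library sizes (-0.29, adjusted p = 0.0599).

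The stereocilia of hair cells use counterparts of the brush border adhesion complex, and this list also held other genes of stereocilia. Of the 9 genes listed, 4 were tested, 2 were lower and 0 higher, with a median log2 fold change of -0.27. Myo3b, a class III myosin that carries espin proteins to protrusion tips, was at 37.6, 40.8 and 46.9 CPM in MPC and at 1.20, 1.67 and 1.72 CPM in MPC-PTX, a log2 fold change of -4.78 (SE 0.17, adjusted p = 8.81e-06). Tprn fell by 0.43 (adjusted p = 0.0348), a call lost without MPC replicate 2 or any 1 of the MPC-PTX libraries (-0.48 to -0.37). Cdh23, Pcdh15, Ush1g, Whrn and Myo3a had at most 10 counts in any library and were not tested. Of these, Ush1g had 7, 10 and 6 counts in MPC and 2, 1 and 1 in MPC-PTX. Its summed count ratio was 5.92, with an interval of 2.02 to 23.6 for counting error.

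**Figure D4:**
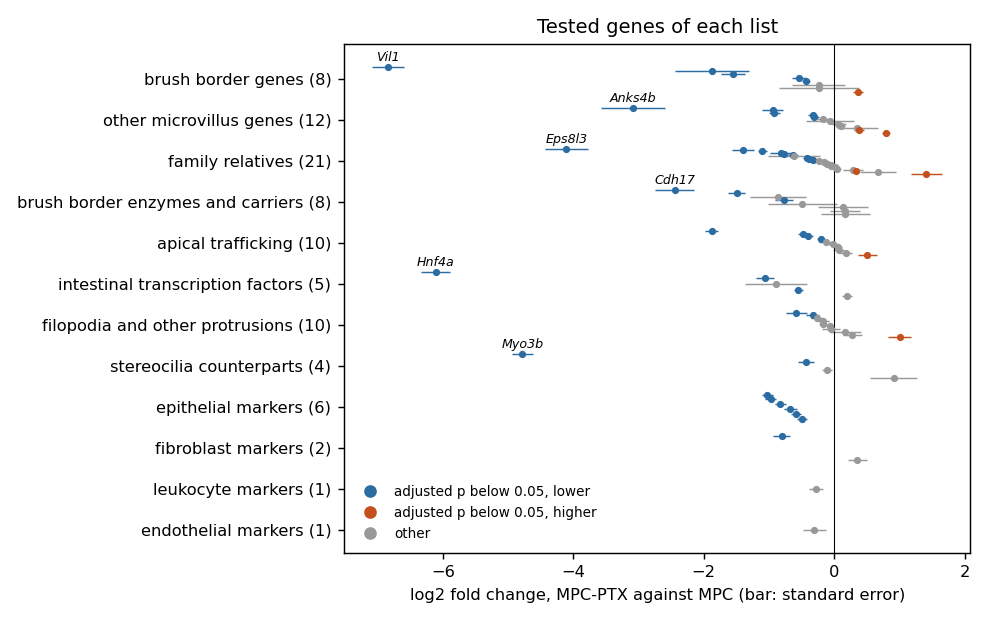
Log2 fold change of MPC-PTX against MPC for each tested gene, by list, with the number of tested genes in brackets. Points are estimates of edgeR's fit and bars are standard errors. Blue and orange mark genes lower and higher at an adjusted p below 0.05. Genes beyond a log2 fold change of 2 in size are named, and the others lie between -1.88 and 1.41.

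Over these 7 lists together, 70 of 104 genes were tested, 28 were lower, 6 were higher and 36 did not pass, with a median log2 fold change of -0.17. The shares over all tested genes were 15.6% lower and 14.1% higher, with a median of 0.04. All 6 general epithelial markers were lower, with log2 fold changes from -1.02 for Krt8 (SE 0.08, adjusted p = 0.000179) to -0.50. Their part in the lower levels of the brush border genes was not tested. Markers of other cell types were low in both lines. The 8 fibroblast markers summed to 9.83 to 10.9 CPM in MPC and 8.63 to 9.92 CPM in MPC-PTX, with 2 tested and 1 lower, Col1a1 (log2 fold change -0.80, adjusted p = 0.00389). The 6 leukocyte markers summed to 11.1 to 12.5 and 9.33 to 10.3 CPM, nearly all of it Cd68, with 1 tested and 0 called, and Ptprc reached at most 6 counts. The 5 endothelial markers summed to 2.63 to 3.08 and 2.21 to 2.79 CPM, with 1 tested and 0 called.

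The 5 tested genes whose log2 CPM, centred on each gene's mean, lay closest to Vil1 over the 6 libraries were Gramd1b, Spon2, Hnf4a, Rec8 and Ctse, at Euclidean distances of 0.559, 0.735, 0.757, 1.12 and 1.27. Gramd1b, for a sterol carrier protein, had 148, 222 and 250 counts in MPC and 1, 0 and 1 in MPC-PTX. Spon2, for a secreted matrix protein, had 322, 380 and 331 counts in MPC and 5, 3 and 3 in MPC-PTX. Both were thus high in all MPC libraries and near 0 in all MPC-PTX libraries, as Vil1 was. Rec8, a meiotic cohesin subunit, had 330, 407 and 387 counts in MPC and 1, 0 and 0 in MPC-PTX. Ctse, for cathepsin E of the gastric mucosa, had 4387, 6009 and 5850 counts in MPC and 30, 29 and 32 in MPC-PTX. With 6 libraries in 2 groups, this likeness rests mostly on the difference between the lines.

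Within MPC, Vil1 was lowest in replicate 1, and several genes that fell in MPC-PTX, chosen here after their values were seen, had their lowest MPC level there too. The ratio of replicate 1 to the mean of replicates 2 and 3 was 0.723 for Vil1, 0.668 for Hnf4a, 0.632 for Eps8l3, 0.647 for Anks4b, 0.573 for Cdh17 and 0.4995 for Cdhr2. The other brush border genes that passed the test were closer to 1, at 0.887 for Myo7b, 0.817 for Pls1, 0.989 for Ezr and 1.01 for Eps8. Over all tested genes the median of this ratio was 1.00 and the 5th percentile 0.569, so Cdhr2 lay below the 5th percentile and the others named above it. Calml4, which did not pass the filter on low counts, was at 0.328. Myo3b was at 0.858.

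Few chromosome neighbours of Vil1 were lower in MPC-PTX. Of 31 tested genes that start within 1 Mb of Vil1, 2 were lower and 5 higher at an adjusted p below 0.05, with a median log2 fold change of 0.18, where 15.6% and 14.1% of all tested genes were lower and higher. For Myo7b the median of 13 neighbours was 0.01, with 3 lower and 0 higher, and for Hnf4a, on chromosome 2, the median of 20 neighbours was -0.01, with 5 lower and 3 higher. Around Cdhr2, 14 of 31 neighbours were lower and 1 higher, with a median of -0.30. Around Myo1a, which did not pass the test itself, 26 of 61 neighbours were lower and 3 higher, with a median of -0.22. Around Espn, Pls1, Eps8, Ezr, Cdhr5 and Ush1c the medians lay between 0.14 and 0.31. All 14 neighbours of Cdh17, on chromosome 4, had a log2 fold change below 0, with 8 lower, 0 higher and a median of -0.63. Hnf4a and Cdh17 were added to this comparison after their values were seen.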

How the data were processed

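Both lines were sequenced, with 6 libraries in all. After poly-A selection, quality filtering (fastp 0.22.0) and mapping (HISAT2), the authors deposited raw counts of reads per gene, neither normalized nor pooled. The genome release, annotation, counting tool and use of strand are not given in the sources used here. The 6 sample tables equal the series table. 

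Groups came from the sample labels. Deposited counts were scaled with TMM, filtered with filterByExpr (minimum count 10) and tested with edgeR 4.0.16 (glmQLFit, robust, and glmQLFTest, R 4.3.3) over 11795 genes with Benjamini-Hochberg adjustment. A gene was called at an adjusted p below 0.05. The standard error is the size of the log2 fold change divided by the square root of the F statistic. Log2 CPM used a prior count of 2. CPM per kilobase used the longest protein-coding transcript of GENCODE M21 (GRCm38), matched by Ensembl identifier, which also gave positions. Intervals of summed count ratios are exact binomial at 95% and cover counting error only. With 3 against 3 libraries the depth was 16574580 to 23148182 counts, and genes under about 10 counts a library were not tested. Promoter windows are from RefSeq. The scripts' tests were checked on simulated data.

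The 10 genes, the lists, the rule for named genes and the alternatives were chosen with earlier results of these data known. Named were all 10 genes, list genes called with a log2 fold change beyond 1 in either direction, tested family relatives, the 3 most abundant genes of the trafficking and microvillus lists, and the 5 tested genes nearest to Vil1 in log2 CPM. The alternatives were DESeq2 1.42.0, its size factors or the library size alone, no filter, at least 10 counts in every library, the replicate number as a block, a loess correction for GC content and length (span 0.3), each library left out in turn, and the call rule of the study's methods. Protein sequences were not analysed here, and some genes of the lists are counted but not reported by name.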

Additional observations from a re-analysis of the deposited data

How the results depend on the processing

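The calls over all tested genes depended on the call rule and on the libraries used. Leaving out each library in turn gave 1077 to 3227 lower and 803 to 3020 higher genes, against 1841 and 1668, with the highest numbers without MPC replicate 3. The correction for GC content and length gave 2479 lower and 2530 higher genes. The rule of the study's methods gave 512 lower and 445 higher genes. Of the brush border genes, 3 were lower with at least 10 counts in every library, where Vil1 and Cdhr2 had no value because the filter removed them, and 3 lower and 0 higher by the rule of the methods. Leaving out libraries gave 4 to 5 lower and 0 to 1 higher. The other lists had 10 lower and 2 higher genes by the rule of the methods, and 21 to 35 lower and 5 to 10 higher with a library left out, 10 of them without MPC replicate 3.

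Same-numbered libraries deviated together with correlations of 0.15, -0.02 and 0.17, so the numbers were not taken to pair them. The replicate block gave 1717 lower and 1787 higher genes, 5 lower and 1 higher brush border genes, and 27 lower and 6 higher genes of the other lists, with the call of Rab11b lost.

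Of the log2 fold changes of named genes under alternatives, 714 kept direction and call, 44 lost the call, 9 gained one and 16 changed sign, none of the last with a call. With a library left out, Espn ranged from -0.69 to 0.18, Flii from -0.17 to 0.021, Svil from -0.032 to 0.017, Myo7a from -0.038 to 0.073, Eps8l2 from -0.20 to 0.053 and Stxbp2 from -0.045 to 0.15. Svil was also at -0.029 with DESeq2, -0.029 with its size factors, -0.026 with at least 10 counts and -0.065 with the correction for GC content and length, and Eps8l2 was at 0.00057 with that correction. The causes were not tested.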
